A study of Mus musculus with 8 samples.

Results

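The Notch pathway was followed through 10 genes in gamma delta (γδ) T cells sorted from visceral fat of C57BL/6 mice, the 3 receptor genes Notch1, Notch2 and Notch3, the nuclear genes Rbpj, Maml1 and Maml2, the target genes Hes1 and Nrarp, and the Deltex genes Dtx1 and Dtx3. The 10 members were taken by symbol from a table of 47729 genes, and 9 of them held enough counts to be tested. They were chosen with knowledge of the diet fold changes, that of Dtx1 among them, so each member's difference between diets is given as a description, and its call supports nothing further. The control diet, chow, and a ketogenic diet (KD) were each represented by 4 samples; KD is a diet very low in carbohydrate and rich in fat, and feeding lasted 1 week. Polyadenylated RNA of each sample was sequenced in bulk. The strain was the same in both groups, and no allele or agent besides the diet is given. The labels do not say whether a sample is 1 mouse or a pool, so whether the 4 samples of a diet count mice or pools is not known. The spread between samples may also be partly technical.

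Notch receptors are surface proteins that are cut when a ligand on a neighbouring cell pulls on them, which frees an intracellular domain that enters the nucleus. There it binds the DNA-binding protein RBPJ and a Mastermind coactivator and turns on genes that RBPJ otherwise helps to repress. The pathway commits thymic progenitors to the T cell lineage, and in mice Notch and Hes1 are needed for IL-17-producing γδ T cells to develop. Deltex proteins are ubiquitin ligases, the founding members of which bind the intracellular part of Notch, and Dtx1 is itself a known Notch target in T cells.

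Promoter windows show where the DNA letters bound by RBPJ lie near these genes. RefSeq entries on GRCm38.p6, each running from 250 bases before to 50 bases after a transcript start, were matched for 8 of the 10 members (not Hes1 and Dtx3) and gave 10 windows. The RBPJ core TGGGAA and its longer form GTGGGAA, which contains the core, were searched on both strands. The core was found in 3 of the 10 windows, which belong to Rbpj and Maml2, and the longer form in 0. Over all 32851 windows of that length the core was present in 25.6% and the longer form in 6.38%. The window of Dtx1 (chr5:120711620-120711919, minus strand) is shown because Dtx1 is the member whose RNA differed between diets, and that of Rbpj (chr5:53590096-53590395, plus strand) because it holds the core at 2 places, which are in capitals. Each is written 5′ to 3′ along the gene. Both lie inside the spans that GENCODE M21 gives these genes, which begin further upstream (Rbpj at 53466152, Dtx1 at 120711927). The bases before those upstream starts were not searched. The first core of Rbpj begins 149 bases before the start of its RefSeq entry, on the plus strand. The other begins 65 bases before that start, on the minus strand, and the second Rbpj window overlaps the first and repeats that site.
Dtx1: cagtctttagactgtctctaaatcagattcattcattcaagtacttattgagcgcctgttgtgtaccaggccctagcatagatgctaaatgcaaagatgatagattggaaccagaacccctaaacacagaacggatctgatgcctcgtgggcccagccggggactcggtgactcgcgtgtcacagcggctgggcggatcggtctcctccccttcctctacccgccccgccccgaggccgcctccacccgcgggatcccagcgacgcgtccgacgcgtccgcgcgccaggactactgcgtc
Rbpj: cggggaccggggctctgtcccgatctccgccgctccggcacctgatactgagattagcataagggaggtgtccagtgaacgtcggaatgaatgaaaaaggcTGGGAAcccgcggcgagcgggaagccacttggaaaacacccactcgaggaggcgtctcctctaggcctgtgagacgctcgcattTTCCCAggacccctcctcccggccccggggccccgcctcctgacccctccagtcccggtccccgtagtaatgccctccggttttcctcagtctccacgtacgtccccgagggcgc
The core letters are not in the Dtx1 window, which says nothing of sites outside it.

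The libraries held 19796112 to 31926427 counts. CPM is the count divided by the scaled library total in units of 1e6 counts, and 3 counts, taken as the floor of detection, came to 0.0947 to 0.152 CPM. All 13 γδ T cell markers examined, such as Trdc and Cd3e, were detected in all 8 libraries, with a summed level of 12324 to 12765 CPM on chow and 12694 to 14225 CPM on KD. RNA of vessel cells was uneven. The 8 mural cell markers (pericytes and smooth muscle) summed to 142 CPM in chow replicate 1, 242 CPM in KD replicate 3 and 73.2 CPM in KD replicate 4, and to 17.0 to 22.4 CPM in the other libraries. The 12 endothelial markers summed to 132, 273 and 407 CPM in the same 3 libraries and to 51.9 to 60.1 CPM in the others. The fold changes of the tested members are therefore also given without KD replicates 3 and 4 and without all 3 libraries. Stromal and mesothelial markers (14 genes) summed to 19.3, 10.7, 23.1 and 213 CPM in chow replicates 1 to 4. In KD replicates 1 to 4 they summed to 26.4, 568, 473 and 647 CPM. The fits with fewer libraries still hold chow replicate 4 and KD replicate 2, where these markers were high. Adipocyte markers (6 genes) summed to 3.75 to 38.6 CPM on chow and 7.08 to 391 CPM on KD. The highest sum was in KD replicate 4, where Fabp4 alone stood at 386 CPM. The part of both marker lists in the results was not tested.

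**Figure D1:**
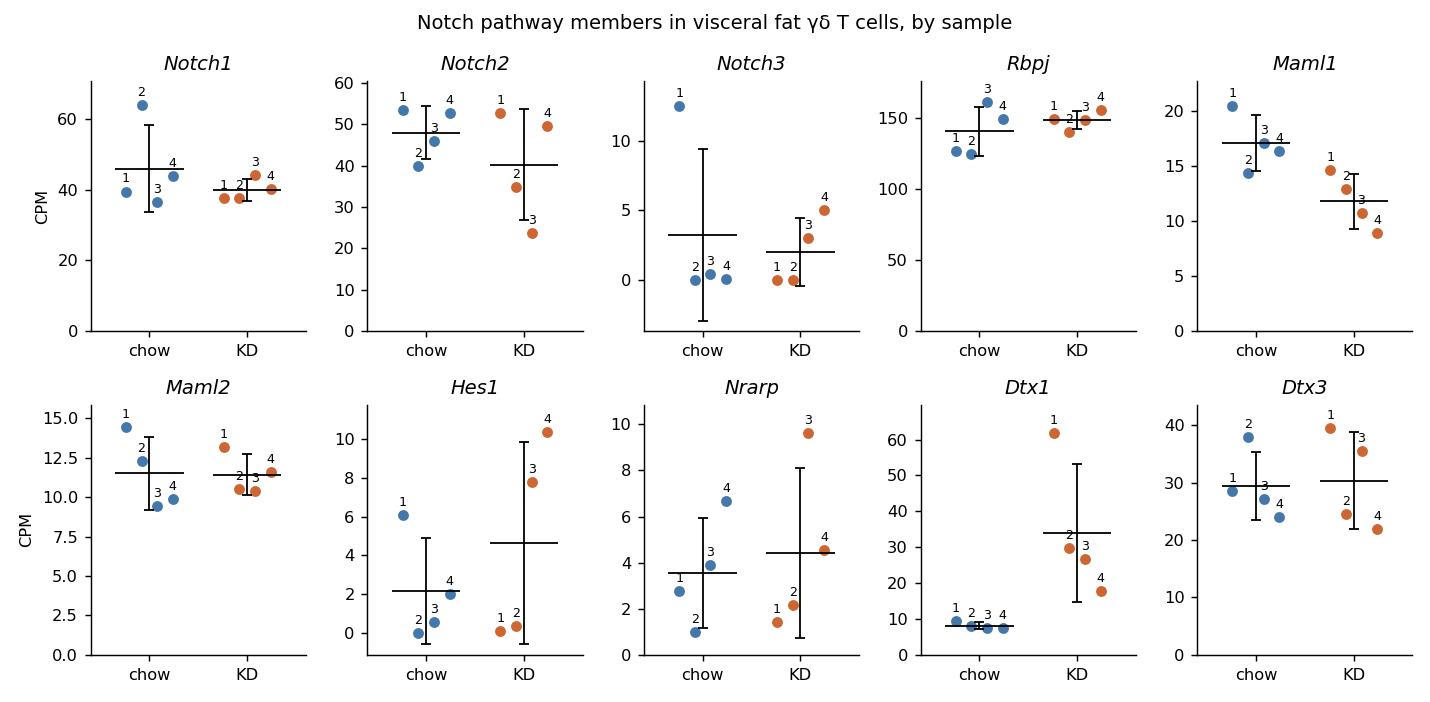
CPM of the 10 members in 4 chow and 4 KD samples; numbers mark the replicate, lines the mean and bars 1 SD (n = 4). Dtx1 lies between 7.45 and 9.49 CPM on chow and between 17.9 and 61.8 CPM on KD, while the diets overlap for the other members.

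Ordered by level per length, the nuclear partner of Notch led, Notch2 and Notch1 stood in the middle and Notch3 came last. FPKM (fragments per kilobase of transcript, scaled to library size) averaged 30.9 for Rbpj over the 8 samples, above 74.4% of the tested genes. Dtx3 followed at 16.3 FPKM, and its range (11.8 to 21.3) stayed below that of Rbpj (26.4 to 40.1). Dtx1 (6.74 FPKM), Notch2 (6.21 FPKM) and Notch1 (5.16 FPKM) came next with ranges that overlapped one another. The mean for Dtx1 joins 2 unlike diets, since 24.6% of the tested genes lay below it on chow and 52.2% on KD. The range of Notch1 (4.03 to 9.14 FPKM) did not meet that of Maml1 (1.73 to 3.83), the next gene at 2.73 FPKM. Hes1 (2.44 FPKM), Maml2 (2.42 FPKM) and Nrarp (1.59 FPKM) overlapped with their neighbours. Notch3 was the lowest at 0.325 FPKM, with values from 0 to 1.56.

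Dtx1, the Deltex ligase known as a Notch target, was the member that differed between the diets. It stood at 9.49, 7.98, 7.45 and 7.52 CPM in chow replicates 1 to 4 and at 61.8, 29.7, 26.6 and 17.9 CPM in KD replicates 1 to 4. The chow samples were close together and all lay below every KD sample, and the KD samples were spread over a wide range with replicate 1 on top. The means were 8.11 ± 0.950 and 34.0 ± 19.2 CPM (SD, n = 4 each), a log2 fold change of 2.07 (SE 0.35), or 4.19-fold. The chow libraries held 213 to 236 Dtx1 counts each and the KD libraries 386 to 1297. In bulk RNA a larger share of Dtx1-expressing cells and more Dtx1 RNA per cell cannot be told apart. The gene lies on chromosome 5 from 120680202 to 120711927 on the minus strand (GRCm38), and its exons share no bases with another annotated gene.

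In edgeR's quasi-likelihood test across 13397 genes, adjusted by Benjamini-Hochberg and called under 0.05, Dtx1 was called higher and the other 8 tested members were not called. Over all tested genes 0.508% were called, 0.328% as higher and 0.179% as lower on KD. The diets did not overlap for 1 of the 9 tested members and for 6.05% of all tested genes. The median log2 fold change of the 9 members was 0.045 and that of all tested genes 0.0065. The Dtx1 call was lost in 7 of the 8 fits that leave out a sample; it was kept without KD replicate 4. The fold stayed positive, with log2 values from 1.61 without KD replicate 1 to 2.28 without KD replicate 4. With the replicate number as a block the log2 fold change was 1.92 and the call was lost.

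The highest Dtx1 value came from KD replicate 1, where mural and endothelial markers summed to 22.4 and 53.1 CPM. Without KD replicates 3 and 4 the log2 fold change was 2.49 (SE 0.30), and without these and chow replicate 1 it was 2.58 (SE 0.33). Neither of these fits called Dtx1 (edgeR adjusted p = 0.103 and 0.161). KD replicates 3 and 4 held the lowest Dtx1 values on KD (26.6 and 17.9 CPM) and chow replicate 1 the highest on chow (9.49 CPM). Leaving them out therefore raises the fold in any case. The part of vessel RNA in the Dtx1 values was not tested. B cells also express Dtx1, and the 8 B cell markers summed to 31.4 to 46.9 CPM on chow and 59.7 to 88.1 CPM on KD, with no overlap. Most of this was Cd79b, a B cell receptor subunit, at 22.1 to 46.8 CPM on chow and 58.4 to 79.5 CPM on KD. Pax5, the B lineage factor, was at most 0.0316 CPM and Cr2, a complement receptor, at most 0.38 CPM. Ms4a1 reached 6.60 CPM in chow replicate 3 and at most 1.86 CPM on KD. The part of B cells in the Dtx1 values was not tested.

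The other Deltex genes overlapped between the diets. Whether the family members differed from one another in their change was not tested. Dtx3, a ligase that lacks the Notch-binding domains of Dtx1, stood at 28.5, 38.0, 27.1 and 24.1 CPM on chow and 39.5, 24.5, 35.5 and 21.9 CPM on KD, with full overlap (log2 fold change 0.045, SE 0.23). Without KD replicates 3 and 4 it was 0.12 (SE 0.27) and without all 3 libraries 0.10 (SE 0.30). Per length, Dtx1 averaged 2.28 ± 0.26 FPKM on chow and 11.2 ± 5.47 FPKM on KD (SD, n = 4 each), and Dtx3 16.2 ± 3.09 and 16.4 ± 4.51 FPKM. Within single samples the ratio of Dtx1 to Dtx3 FPKM was 0.108 to 0.169 on chow and 0.448 to 0.908 on KD. Dtx3 was thus the higher of the pair per length in all 8 samples. Dtx2 was at 6.92 ± 0.945 and 7.06 ± 0.597 FPKM, Dtx3l, the partner of the ADP-ribosyltransferase PARP9, at 14.4 ± 3.46 and 12.5 ± 1.20 FPKM, and Dtx4 at 1.94 ± 0.567 and 1.42 ± 0.356 FPKM.

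**Figure D2:**
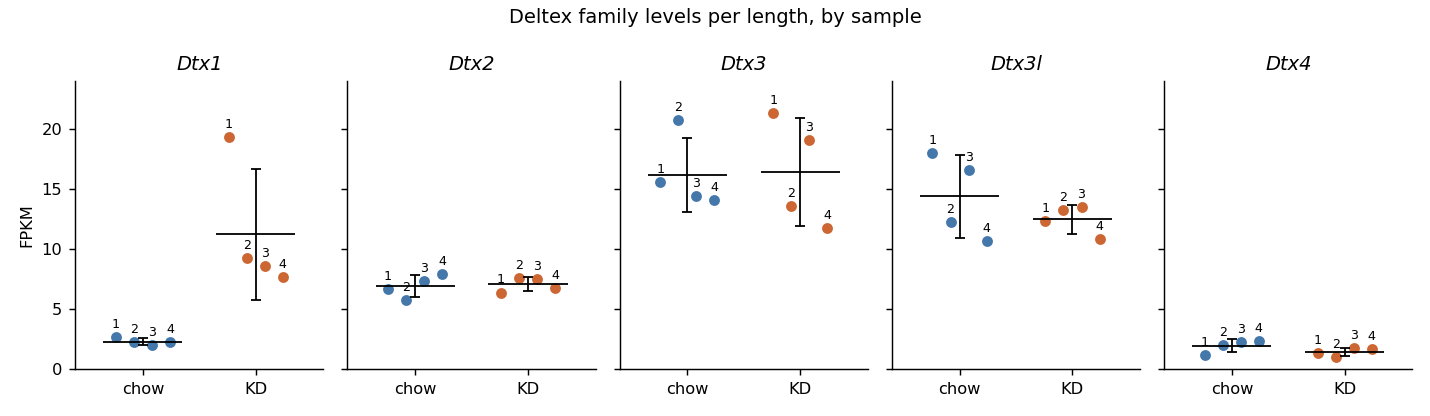
FPKM of the 5 Deltex genes in each chow and KD sample, on a shared axis; numbers mark the replicate, lines the mean and bars 1 SD (n = 4). Dtx1 moves from 2.28 to 11.2 FPKM on average and on KD stays below Dtx3 in every sample.

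The count and FPKM tables together carry a transcript length, because an FPKM is a count divided by the effective length (the bases over which a fragment can start) and by the library total. For 680 genes with a single annotated transcript and at least 5 FPKM in every sample, the implied length varied between samples by a median of 0.0122% of its mean, and it was a median of 75 bases shorter than the annotated transcript. A gene with several transcripts has an implied length that follows their estimated mixture. For Dtx1 it was 3605, 3634, 3696 and 3263 bases on chow and 3216, 3207, 3110 and 2324 bases on KD, so that every KD sample was shorter than every chow sample. GENCODE M21 lists 1 protein-coding Dtx1 transcript of 4035 spliced bases and 5 shorter models of 507 to 2961 bases, all retained introns or processed transcripts. Among the 7 members with at least 1 FPKM in every sample, the diets did not overlap for Dtx1 alone. Of all 9907 genes with that level, 2.82% did not overlap and 1.55% did so with shorter values on KD. Rbpj ranged from 4371 to 5075 bases on chow and from 3857 to 5145 bases on KD. Nrarp, which has 1 annotated transcript, stayed between 2484 and 2523 bases.

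**Figure D3:**
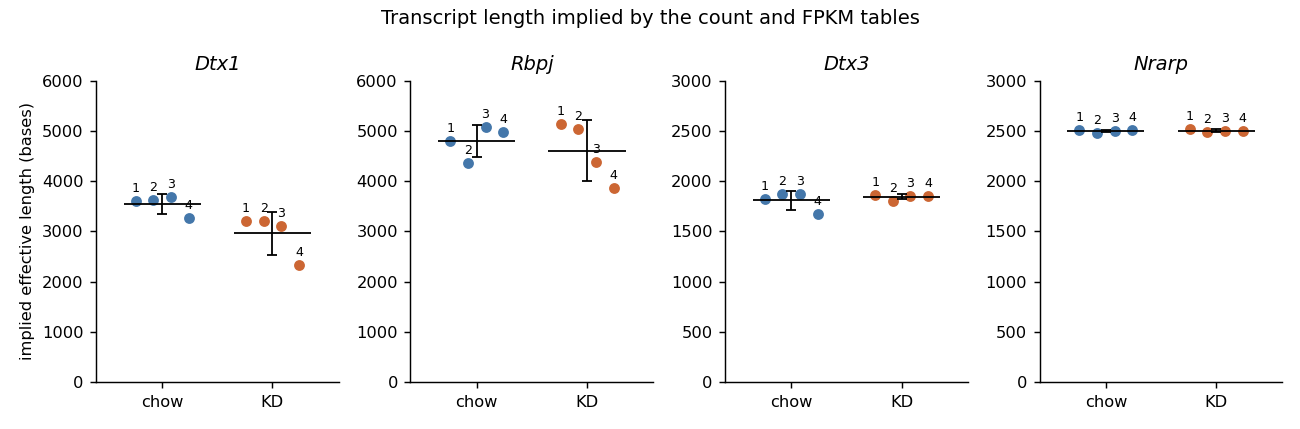
Effective length in bases implied by the count and FPKM tables for Dtx1, Rbpj, Dtx3 and Nrarp; numbers mark the replicate, lines the mean and bars 1 SD (n = 4). Dtx1 runs from 3263 to 3696 bases on chow and from 2324 to 3216 bases on KD, and Nrarp is nearly constant.

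The receptor genes Notch1 and Notch2 overlapped between the diets. Notch1, the receptor that drives T cell commitment, stood at 39.5, 63.9, 36.5 and 43.8 CPM on chow and 37.5, 37.7, 44.1 and 40.2 CPM on KD (log2 fold change -0.20, SE 0.18). Chow replicate 2 was high and the other samples of both diets lay together. The value was -0.29 (SE 0.25) without KD replicates 3 and 4 and -0.36 (SE 0.26) without all 3 libraries. Notch2, the receptor that marginal zone B cells require, stood at 53.5, 39.9, 46.0 and 52.8 CPM on chow and 52.9, 34.9, 23.8 and 49.6 CPM on KD (log2 fold change -0.25, SE 0.24). Its lowest value was in KD replicate 3, and the log2 fold change was -0.13 (SE 0.22) without KD replicates 3 and 4 and -0.079 (SE 0.24) without all 3 libraries. Per length, Notch2 was higher than Notch1 in 6 of the 8 samples, and the ratio of their FPKM fell below 1 in chow replicate 2 (0.675) and KD replicate 3 (0.496). Notch1 shares 1389 of its 14232 exonic bases with genes on the other strand and Notch2 541 of 10782 with a gene on its own strand, so part of their counts is uncertain. Notch1 lies on chromosome 2 from 26457903 to 26516663 (minus strand), Notch2 on chromosome 3 from 98013527 to 98150361 (plus strand) and Notch3 on chromosome 17 from 32120820 to 32166852 (minus strand), all on GRCm38.

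The diets overlapped for all 3 nuclear genes. Rbpj, the DNA-binding subunit, stood at 127, 125, 161 and 149 CPM on chow and 149, 140, 149 and 155 CPM on KD (log2 fold change 0.08, SE 0.10). Leaving out KD replicates 3 and 4 gave 0.042 (SE 0.13) and leaving out all 3 libraries -0.0041 (SE 0.14). Maml1, a Mastermind coactivator, stood at 20.5, 14.4, 17.1 and 16.4 CPM on chow and 14.6, 12.9, 10.8 and 8.89 CPM on KD. The KD samples were the lower ones, except that KD replicate 1 lay just above chow replicate 2 (log2 fold change -0.53, SE 0.23, not called). Without KD replicates 3 and 4 the value was -0.31 (SE 0.245), and without all 3 libraries it was -0.22 (SE 0.25). Maml2, another Mastermind gene, stood at 9.44 to 14.4 CPM on chow and 10.4 to 13.2 CPM on KD (log2 fold change -0.011, SE 0.24), with 0.041 (SE 0.30) and 0.17 (SE 0.30) in those smaller fits. On GRCm38, Rbpj lies on chromosome 5 from 53466152 to 53657362 (plus strand), Maml1 on chromosome 11 from 50255634 to 50292311 (minus strand) and Maml2 on chromosome 9 from 13297957 to 13709388 (plus strand).

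Hes1 and Notch3 were high in the same 3 libraries as vessel RNA. The sum of the adipocyte list was also highest there, at 38.6, 224 and 391 CPM in chow replicate 1 and KD replicates 3 and 4. Most of that was Fabp4, at 33.0, 216 and 386 CPM. Plin1, Cidec and Lep were at 0 in these 3 libraries, and Adipoq was at 0, 0 and 0.833 CPM. Lipe was at 5.56, 8.14 and 4.58 CPM there and highest in KD replicate 1 (9.77 CPM). The sum thus follows 1 gene of the list. Hes1, the repressor that is a classic Notch target, stood at 6.1, 0, 0.568 and 1.99 CPM on chow and at 0.0953, 0.339, 7.79 and 10.4 CPM on KD. Chow replicate 1 and KD replicates 3 and 4 were thus the highest, and KD replicates 3 and 4 lay above every chow sample while KD replicates 1 and 2 lay among the low ones (log2 fold change 1.10, SE 1.51). Without KD replicates 3 and 4 the value was -3.28 (SE 2.14) and without chow replicate 1 as well it was -1.94 (SE 2.10). Notch3, the receptor of vascular smooth muscle and pericytes, stood at 12.5, 0, 0.379 and 0.0331 CPM on chow and 0, 0, 2.98 and 5.0 CPM on KD. It had 298 of its 311 chow counts in replicate 1 and all 167 of its KD counts in replicates 3 and 4, and it held too few counts to be tested. What part vessel or adipocyte RNA has in the Hes1 and Notch3 values was not tested. In the other 5 libraries Notch3 was at or near 0, between 0 and 12 counts.

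Nrarp, a small ankyrin repeat protein that is induced by Notch and restrains it, stood at 2.76, 0.974, 3.88 and 6.66 CPM on chow and 1.43, 2.15, 9.61 and 4.54 CPM on KD. The diets overlapped widely (log2 fold change 0.31, SE 0.73), and the value was -0.999 (SE 0.85) without KD replicates 3 and 4 and -1.10 (SE 0.905) without all 3 libraries. Nrarp is uncertain because 2051 of its 2582 exonic bases are shared with Gm38287 on the other strand, and the sources used here do not give the strand setting. The authors' table holds up to 41.3 estimated counts of Gm38287 in a library, beside 26 to 201 of Nrarp. On GRCm38, Nrarp lies on chromosome 2 from 25180758 to 25183339 and Hes1 on chromosome 16 from 30064384 to 30067796, both on the plus strand, and Dtx3 on chromosome 10 from 127190378 to 127195728 on the minus strand.

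**Figure D4:**
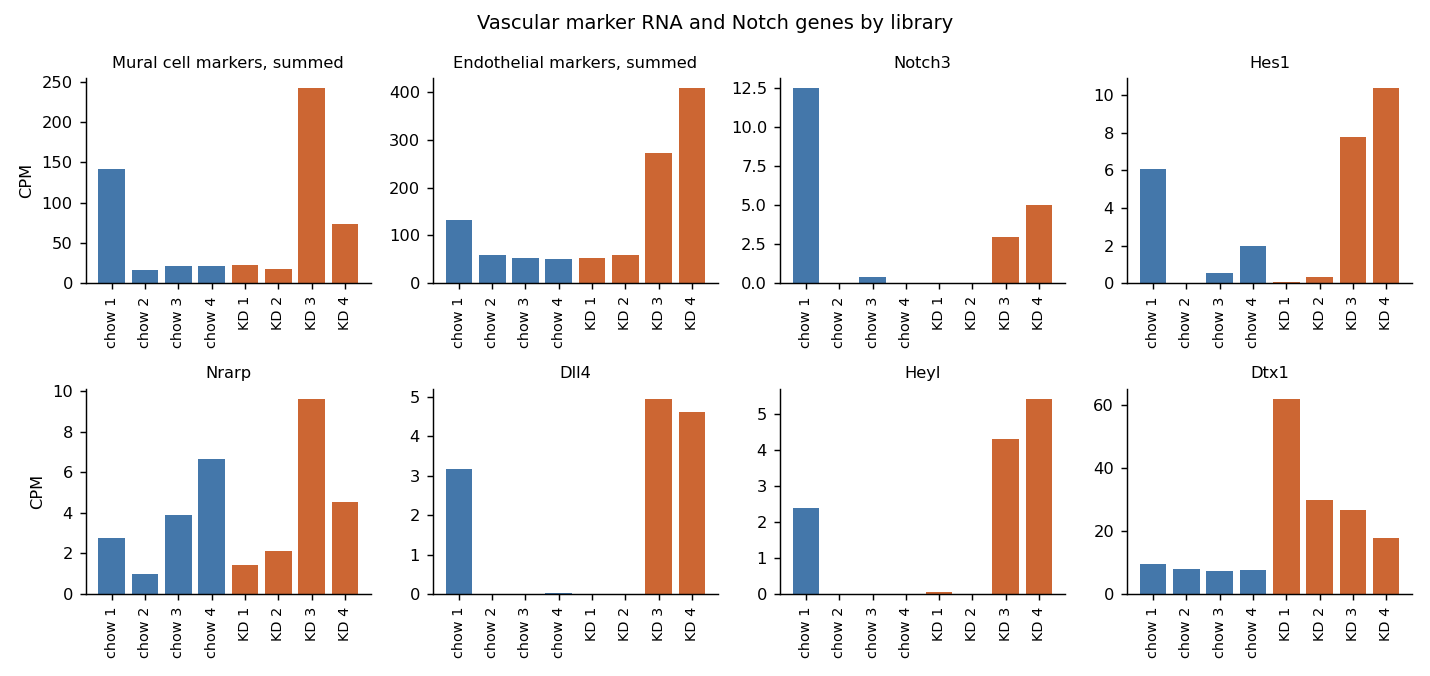
CPM by library for summed mural (8 genes) and endothelial (12 genes) markers and for Notch3, Hes1, Nrarp, Dll4, Heyl and Dtx1 (chow blue, KD orange). Chow replicate 1 and KD replicates 3 and 4 are highest for both marker sums, Notch3, Hes1, Dll4 and Heyl, but not for Dtx1.

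Beyond the members, 54 other genes of the pathway were listed by role, and 44 held enough counts to be tested. By edgeR 0 were called higher, 1 was called lower (Myc) and 43 were not called, 7 of the 44 having an unadjusted p under 0.05, as did 8.64% of all tested genes. The median log2 fold change was 0.011, with 22 positive and 22 negative. The diets did not overlap for 4 of the 44 (Aph1b, Ncor1, Il2ra and Myc), beside 6.05% of all tested genes. Myc, a growth regulator that Notch induces in T cell leukaemia, stood at 130 to 187 CPM on chow and 72.7 to 112 CPM on KD (log2 fold change -0.86, SE 0.15, edgeR adjusted p = 0.0463), and 7 of the 8 fits that leave out a sample did not call it.

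Among the ligands, Jag1 was at 74.1 ± 18.7 CPM on chow and 49.5 ± 8.83 CPM on KD (SD, n = 4 each; log2 fold change -0.58, edgeR adjusted p = 0.396). Dll1 was at 0 in 4 libraries and reached 12.0 CPM in KD replicate 4 (adjusted p = 0.656 by edgeR). Dll4, a ligand of sprouting vessels, and Heyl, a Notch target of smooth muscle, were chosen after their values were seen. Dll4 stood at 3.18, 4.95 and 4.63 CPM and Heyl at 2.38, 4.30 and 5.42 CPM in chow replicate 1 and KD replicates 3 and 4, and neither passed 0.048 CPM elsewhere. The endothelial receptor gene Notch4 was at 2.88, 5.66 and 0.417 CPM in those libraries and at most 0.187 CPM in the others. Dll3 and Hes5 were at 0 throughout, and any level below the floor was not detectable at this depth.

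The 14 tested genes that cut and modify the receptors had a median log2 fold change of 0.011, with 7 positive and 7 negative. Furin, the protease that cleaves the newly made receptor, was at 235 ± 39.2 CPM on chow and 274 ± 29.0 CPM on KD (log2 fold change 0.22, edgeR adjusted p = 0.704). Adam10, the sheddase that makes the ligand-dependent cut, was at 199 ± 17.8 and 185 ± 32.5 CPM (log2 fold change -0.11, adjusted p = 0.898). Pofut1, which adds the fucose that ligand binding needs, had the smallest p of this group (29.4 ± 10.7 and 17.9 ± 5.84 CPM, log2 fold change -0.71, adjusted p = 0.542). The 10 tested genes of endocytosis and ubiquitin transfer had a median of 0.052. Itch, a ligase of Notch, had a log2 fold change of -0.19, Dtx3l of -0.17 and Numb, an inhibitor of Notch, of -0.29.

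The 11 tested genes of the nuclear complex had a median log2 fold change of 0.043. Ncor1, a corepressor that works with RBPJ when Notch is silent, was at 511 ± 28.0 CPM on chow and 611 ± 34.6 CPM on KD (SD, n = 4 each; log2 fold change 0.26, SE 0.071, edgeR adjusted p = 0.226), and DESeq2 called it higher. Kdm5a, a histone demethylase, had a log2 fold change of 0.26 (SE 0.18). Of the HES and HEY targets Hes6 was at 35.6 ± 5.07 and 37.0 ± 9.80 CPM and Hey1 at 10.01 ± 3.2 and 8.14 ± 5.15 CPM. Il2ra, the IL-2 receptor chain CD25, was at 431 ± 36.6 CPM on chow and 354 ± 25.4 CPM on KD (log2 fold change -0.29, edgeR adjusted p = 0.286), and Tcf7, a T lineage factor that Notch induces in the thymus, at 348 ± 38.7 and 394 ± 43.5 CPM (adjusted p = 0.705).

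**Figure D5:**
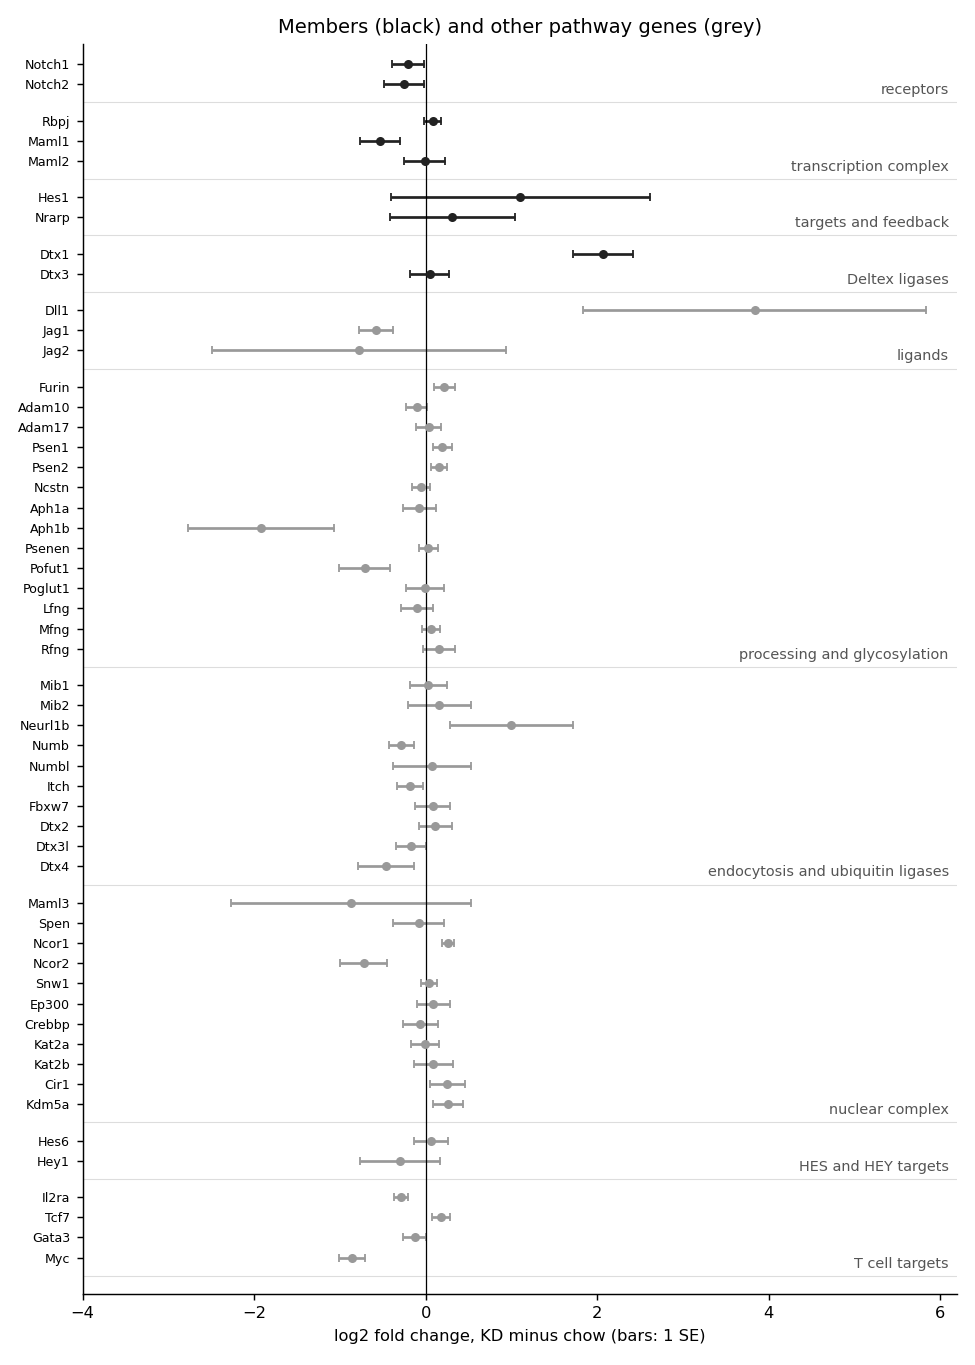
Log2 fold change, KD minus chow, of the 9 tested members (black) and 44 other tested pathway genes (grey), grouped by role, with bars of 1 SE. Dtx1 lies at 2.07 and Myc at -0.86, and the wide bars of Dll1 and Hes1 belong to genes with few counts.

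The genes whose levels followed Dtx1 most closely over the 8 samples were sought among 9332 tested genes with a mean of at least 5 CPM, by Pearson's r of log2 CPM. Among the 5 highest were Rfx1, a transcription factor (r = 0.981), Cryba4, a crystallin (0.970), Psmd1, a proteasome subunit (0.968) and Lgals3bp, a galectin-binding protein (0.963), with Spearman's rho of 0.762 to 0.905. The step between diets is part of these values. After centring within each diet the 5 highest were Polr2d, an RNA polymerase II subunit (r = 0.991), Ddx39b, an RNA helicase (0.982), Egln3, an oxygen-sensing hydroxylase (0.965), Cep162 (0.958) and Wdsub1 (0.953), none of them among the former. They are the top of a long ranking over 8 samples and are given as a description. Of the members, Maml1 had an r with Dtx1 of -0.448 over the 8 samples, the lowest, and of 0.831 within diets, the highest.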

How the data were processed

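The authors' deposited tables hold estimated counts and FPKM for 47729 genes in the same 8 samples. The submitters' processing notes name BWA, TopHat2, RSEM and DESeq2 and the build GRCm38, without versions or roles. Estimated counts were rounded to whole numbers. Columns were matched to samples by title, 27 symbols that had become dates were restored by Ensembl identifier, and no 2 samples were identical. Genes were kept with filterByExpr (minimum count 10, minimum total 15), which left 13397, scaled with TMM factors, and compared with edgeR 4.0.16 (quasi-likelihood F test, robust, diet as the only term, R 4.3.3). CPM use TMM-scaled totals. The SE is the fold change divided by the root of F. The code was tested on simulated data. Likeness used log2 of CPM plus 0.5. Positions are from GENCODE M21. Alternatives used limma 3.58.1 on log2 of FPKM plus 1 or 0.1, DESeq2 1.42.0, RLE factors, other filters, a replicate block and fewer samples. Floors cover counting error only. The members and all lists were chosen with earlier results of these data known. The other pathway genes named are those called, the 2 most abundant and the 1 with the smallest p of each role; Aph1b, Dll3, Dll4, Dtx2, Dtx4, Hes5 and Heyl were added after their values were seen. Protein sequences were not used here. Some items of the lists are not reported here.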

Additional observations from a re-analysis of the deposited data

Results flagged for a closer look

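Notch3 in chow replicate 1 stood far from the other chow samples, at 12.5 CPM against at most 0.379 CPM in the others. The gap to the nearest sample was 0.97 of the range of the group, above Dixon's critical value for 4 samples. In all, 20 groups (10 genes in 2 diets) were examined in this way and 1 was flagged, and chance flags about 1 in 20. Mural cell markers in that library summed to 142 CPM, and to at most 21.8 CPM in the other chow libraries. Most of the 142 CPM was Acta2 (77.9 CPM) and Myh11 (40.3 CPM), while Rgs5, Cspg4, Abcc9 and Higd1b were at 0 there. Rgs5 was at 28.3 and 16.9 CPM in KD replicates 3 and 4. The part of mural cell RNA in the Notch3 value was not tested.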

How the results depend on the processing

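The direction of Dtx1 was the same under all alternatives run, and its call was not. The log2 fold change was 1.92 with a replicate block, 2.49 without KD replicates 3 and 4 and 2.58 without these and chow replicate 1 (an alternative added after seeing the data), each with the call lost (edgeR adjusted p = 0.0849, 0.103 and 0.161), and 1.61 to 2.28 without single samples (adjusted p = 0.0381 to 0.142). RLE factors, both other filters, DESeq2 and both FPKM fits kept the call. Members called numbered 0 with the block, without KD replicates 3 and 4, and without 3 libraries, and 0 to 1 without single samples; 1 or 2 members had an unadjusted p under 0.05 in each of these edgeR fits, beside 6.6% to 9.57% of all genes tested. Other pathway genes called were 2 with DESeq2 (Ncor1 and Myc), 0 without KD replicates 3 and 4 or without 3 libraries (6 and 5 with unadjusted p under 0.05), and 0 to 1 without single samples (3 to 8). Over all genes 68 were called, against 12 with the block, 292 with DESeq2, 126 and 119 with FPKM plus 1 and plus 0.1, 4 without KD replicates 3 and 4, 0 without 3 libraries (1000 with unadjusted p under 0.05 in edgeR) and 12 to 44 without single samples. No pairing by replicate number was seen over all tested genes: deviations of same-numbered samples had correlations of -0.115 to 0.067, and 0 of 4 matched their own number best. A weak batch, or one that touches few genes, need not show in such correlations. By TPM rescaled from FPKM 8 of the 10 members kept their rank, Hes1 and Maml2 changing places. The low counts of Notch3, Hes1 and Nrarp limit what could be seen of them.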
